A study of Mus musculus with 16 samples.

Results

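The neurotrophin genes Bdnf, Ntf3 and Ntf5, the Trk receptor genes Ntrk2 and Ntrk3, and Ngfr, which encodes the p75 neurotrophin receptor, were taken by gene symbol from the deposited count table, 6 of its 56748 genes. Their transcripts were measured by bulk RNA-seq in the longitudinal muscle with attached myenteric plexus (LMMP), the layer of the gut wall that holds the myenteric ganglia. LMMP from HSCR mice (Ednrb -/-, homozygous for the Ednrb tm1Ywa disruption, a model of Hirschsprung disease with an aganglionic distal colon) and from their WT littermates (Ednrb +/+) gave 4 libraries per genotype from the proximal and 4 from the distal colon, 16 in all. All groups shared a hybrid C57BL6/J-129Sv background, and an age of 2 to 4 weeks. No treatment is named, the sex of the mice behind each group is not given here, and the labels do not say which libraries came from the same mouse. The 8 distal libraries are named distal in their titles and proximal in their tissue entries, and were taken as distal.

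Neurotrophins are secreted growth factors that act on developing and mature neurons. BDNF (Bdnf) and neurotrophin-4 (Ntf5) bind the receptor kinase TrkB (Ntrk2), neurotrophin-3 (Ntf3) binds TrkC (Ntrk3), and all of them bind p75 (Ngfr). In the gut, TrkC and its ligand act on enteric neurons as these form from neural crest cells, p75 is carried by enteric neural crest cells and their descendants, and BDNF is known to affect motility and sensation.

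The 3 ligand genes are paralogs, as are the 2 Trk genes, and the following coding sequences show how far each can be told from its relatives by short reads. They are stretches of 60 bases each, read from GRCm39 (mm39) with the GENCODE release M39 gene models and printed 5′ to 3′ on the coding strand. They were chosen as the coding stretches within an exon where the relatives were most alike to Bdnf or to Ntrk2. Their percentages are therefore not averages over the genes, and untranslated parts were not compared. Capitals mark bases shared by every gene of the family at that position. The ligands are shown in the last coding exon, at chr2:109554351-109554410 on the plus strand for Bdnf (exon 2 of 2), chr6:126078779-126078838 on the minus strand for Ntf3 (exon 2 of 2) and chr7:45065350-45065409 on the plus strand for Ntf5 (exon 3 of 3).
Bdnf: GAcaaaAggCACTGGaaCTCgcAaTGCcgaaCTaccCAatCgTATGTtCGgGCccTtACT
Ntf3: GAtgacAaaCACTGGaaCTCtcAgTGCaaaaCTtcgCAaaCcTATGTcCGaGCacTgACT
Ntf5: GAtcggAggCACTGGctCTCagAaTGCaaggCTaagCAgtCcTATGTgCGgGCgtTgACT
In these stretches 34 of 60 bases were shared by all 3 ligands. Bdnf and Ntf3 were identical at 71.7% of the positions, and Ntf5 was identical to either of them at 66.7%. Over the whole coding sequences, the longest stretch of identical bases found anywhere in a pair of ligands was 18, between Ntf3 and Ntf5.
The receptors are shown in the exon that encodes part of the kinase domain, at chr13:59202215-59202274 on the plus strand for Ntrk2 (exon 15 of 18) and chr7:77900454-77900513 on the minus strand for Ntrk3 (exon 14 of 17).
Ntrk2: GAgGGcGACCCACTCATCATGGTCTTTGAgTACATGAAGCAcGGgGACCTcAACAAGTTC
Ntrk3: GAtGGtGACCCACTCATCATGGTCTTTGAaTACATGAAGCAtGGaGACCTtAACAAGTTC
The receptors were identical at 90.0% of these positions, and 23 bases was the longest identical run over their whole coding sequences. Counts were deposited per gene, so that full-length and truncated forms of TrkB and TrkC were not separated. Whether strand was used in counting is not given in the sources used here, and in the GENCODE models genes on the opposite strand share exon bases with Ntf5 (Ruvbl2, 1136 bases), Bdnf (Gm45346, 1028 bases) and Ntf3 (Gm67883, 213 bases). Ruvbl2 did not overlap Ntf5 in the gene positions of the deposited table, and its log2 CPM had a Pearson r of 0.20 with that of Ntf5 over the 16 libraries. Gm45346 (109501253 to 109506936) did overlap Bdnf (109505045 to 109557352) in those positions, and its part in the Bdnf counts was not tested.

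Between 21384372 and 45831881 reads per library were counted on genes, of which mitochondrial genes took 4.32% to 49.8%. Values of single libraries are CPM (counts scaled to a common library size, after edgeR's TMM normalization). Standard errors of log2 fold changes were derived from edgeR's test statistic. The preparations varied in composition. Smooth muscle Myh11 was present in every library (426 to 20360 CPM), and the neuronal RNA-binding protein gene Elavl4 spanned 0.0913 to 183 CPM. The libraries labelled HSCR distal 2 to 4 held 0.438, 0.508 and 0.0913 CPM of Elavl4, whereas the library labelled HSCR distal 1 held 41.2 CPM, more than HSCR proximal 1 (3.07 CPM) and HSCR proximal 2 (3.84 CPM). Ednrb, the targeted gene, had 64.5, 33.8, 67.1 and 53.0 CPM in WT proximal and 7.84, 11.9, 37.3 and 35.3 CPM in HSCR proximal libraries 1 to 4. In the distal colon it had 11.8, 15.7, 29.5 and 43.0 CPM in WT and 94.8, 5.43, 6.10 and 9.48 CPM in HSCR. The highest Ednrb level of all libraries was therefore in the library labelled HSCR distal 1, and the distal differences of the 6 genes and of the neuronal, glial and epithelial marker lists are also given without it. The library labelled HSCR proximal 1 was likewise left out in turn. The reason was its level of the posterior gene Hoxd12 (38.1 CPM), above that of every library labelled distal. Hoxd12 in the libraries labelled HSCR distal 1 (1.73 CPM) and HSCR distal 4 (0.731 CPM) lay within the WT proximal range (0.14 to 2.7 CPM). HSCR distal 4 was left out only where each library was left out in turn. Whether any labels were exchanged was not tested. The log2 fold change of Ednrb between HSCR and WT was -1.26 in the proximal colon (standard error 0.52) and 0.27 in the distal colon (standard error 0.95), with adjusted p-values of 0.747 and 1.0 from edgeR's quasi-likelihood test. Without the library labelled HSCR distal 1 the distal value of Ednrb was -1.83 (standard error 0.51, adjusted p = 0.813 by edgeR). Without the library labelled HSCR proximal 1 the proximal value of Ednrb was -0.96 (standard error 0.45, adjusted p = 0.845 by edgeR).

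None of the 6 genes passed an adjusted p under 0.05 between HSCR and WT mice, in either segment. By the quasi-likelihood test of edgeR, with p-values adjusted by the Benjamini-Hochberg procedure, 0 of 6 were called among 16664 genes tested in the proximal colon, where 0.0% of all genes were called, and 0 of 6 among 17059 in the distal colon, where the share was also 0.0%. At an unadjusted p under 0.05 the count was again 0 of 6 in both segments, beside 6.62% of all genes in the proximal colon and 2.64% in the distal. All 6 genes were tested in every comparison. DESeq2 also called 0 of 6 in both segments, beside 1.16% of all genes in the proximal colon and 0.13% in the distal. RUVr, which is described beside Ntrk3, called 1 of 6 in each, and it called 21.0% of all genes for the proximal colon and 9.51% for the distal, against which a count of 1 of 6 does not stand out. The 2 largest differences were lower values of Ntrk3 in HSCR proximal colon and of Ngfr in HSCR distal colon. For none of the 6 genes did the HSCR libraries lie apart from the WT libraries of the same segment, while 4.78% of all genes in the proximal colon and 1.83% in the distal had groups that did not overlap. In bulk tissue, fewer cells of a type and less RNA per cell cannot be told apart. The labels do not describe the libraries of a group beyond a replicate number, so that p-values measure the spread between these libraries.

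**Figure D1:**
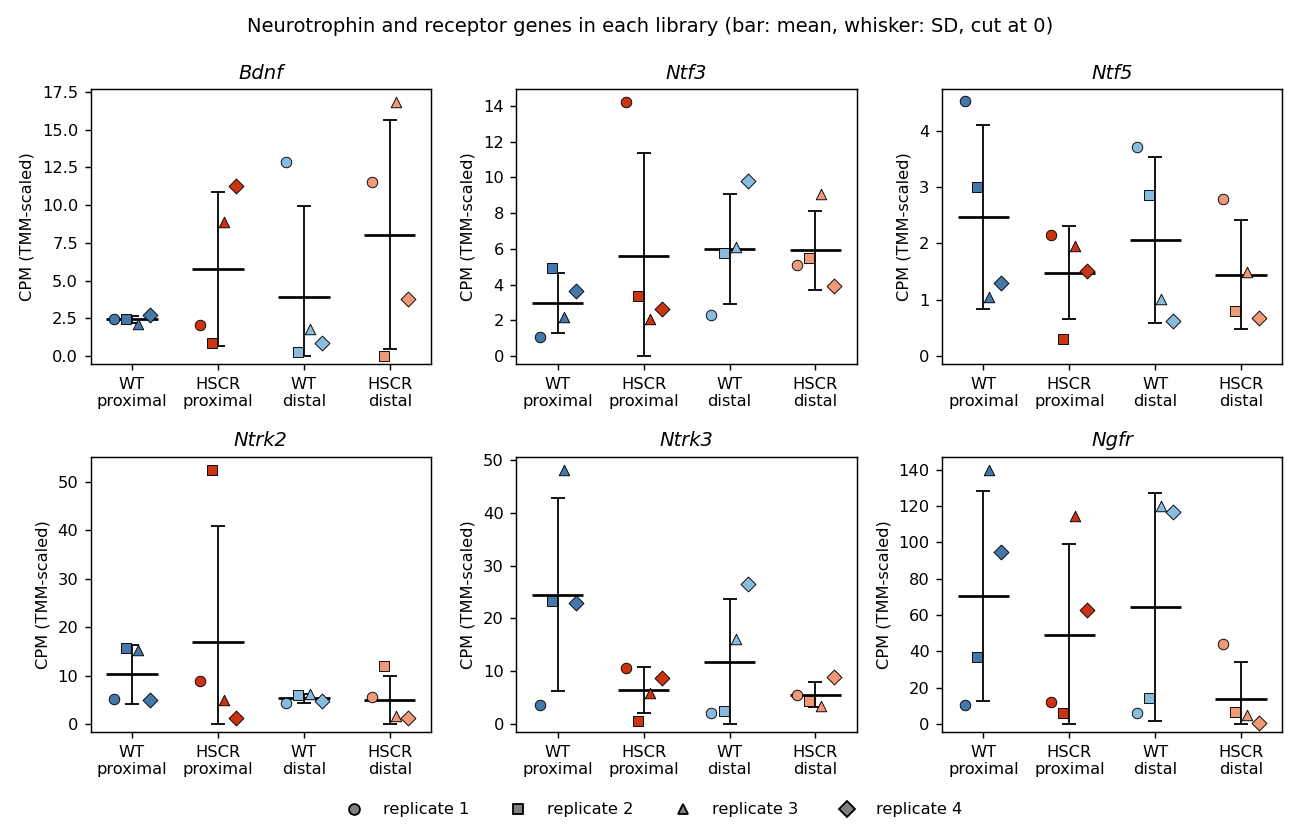
TMM-scaled CPM (vertical axes, linear and different for each gene) of the 6 genes in WT and HSCR proximal and distal colon, 1 point per library with its shape giving the replicate number, bars for the mean and whiskers for the SD, cut at 0. Libraries 3 and 4 carry the high Ngfr values of 3 groups, and 1 library each carries the highest Ntf3 (14.2 CPM) and Ntrk2 (52.4 CPM) values in HSCR proximal colon.

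Bdnf (ENSMUSG00000048482, chromosome 2, 109505045 to 109557352, plus strand) encodes BDNF. WT proximal libraries 1 to 4 held 2.44, 2.46, 2.13 and 2.72 CPM of Bdnf. HSCR proximal libraries 1 to 4 held 2.05, 0.864, 8.89 and 11.3 CPM. The WT libraries were nearly level, and HSCR libraries lay both below all of them (1 and 2) and above all of them (3 and 4). Proximal colon of WT mice averaged 2.44 ± 0.241 and that of HSCR mice 5.78 ± 5.11 CPM (SD, n = 4 each). edgeR gave a log2 fold change of 1.22 with a standard error of 0.77 and an adjusted p of 0.779, and the mean log2 CPM differed by 0.59 (exact permutation test, two-sided, p = 0.457).

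Distal Bdnf levels were 12.9, 0.253, 1.78 and 0.853 CPM in WT libraries 1 to 4. The HSCR libraries held 11.6, 0, 16.8 and 3.79 CPM. In each genotype the distal libraries thus spread from near or at 0 to above 11 CPM. The HSCR library without a count (library 2) held 22939717 counted reads in all, for which 3 counts correspond to 0.131 CPM. By edgeR the HSCR libraries had a log2 ratio to WT of 0.96 (standard error 1.53), with an adjusted p of 1.0, and the value was 3.05 without WT distal library 1, the highest WT library. Within the libraries named by 1 scheme (replicates 1 and 2 of each group), the mean log2 CPM of Bdnf was lower in HSCR by 0.87 in the proximal and by 2.18 in the distal colon, whereas it was higher by 2.05 and 2.68 among replicates 3 and 4. Of the 6 genes Bdnf had the widest spread within groups, with a pooled SD of 2.78 on the log2 scale that exceeded that of 92.5% of all genes tested (median 0.88). That SD includes HSCR distal library 2, whose log2 CPM of -6.11 was set by the prior count. The SD was 4.73 in HSCR distal, and 0.144 in WT proximal, 1.75 in HSCR proximal and 2.35 in WT distal libraries. The same floor value enters the distal difference of -2.18, and the rank of Bdnf without that library was not tested.

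Ntf3 (ENSMUSG00000049107, chromosome 6, 126078375 to 126143873, minus strand) encodes neurotrophin-3. Its level was 1.08, 4.92, 2.18 and 3.67 CPM in WT proximal libraries 1 to 4. In HSCR proximal libraries 1 to 4 it was 14.2, 3.35, 2.10 and 2.65 CPM. Library 1 stood above the rest, and the other HSCR libraries lay within the WT range. The difference fitted by edgeR was 0.89 on the log2 scale, with 0.76 as its standard error and 0.823 as the adjusted p, and it was -0.13 without HSCR proximal library 1.

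Distal Ntf3 levels were 2.32, 5.78, 6.10 and 9.81 CPM in WT libraries 1 to 4. In HSCR they were 5.11, 5.51, 9.09 and 3.95 CPM. The HSCR libraries lay wholly inside the WT range. The means of 6.002 ± 3.06 and 5.92 ± 2.22 CPM (SD, n = 4 each) were close to each other, and edgeR put their log2 ratio at -0.02 with a standard error of 0.49 and an adjusted p of 1.0.

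Ntf5 (ENSMUSG00000074121, chromosome 7, 45063119 to 45066603, plus strand) encodes neurotrophin-4 and had the fewest counts, 9 to 115 per library. WT proximal libraries 1 to 4 held 4.52, 3.01, 1.04 and 1.30 CPM of Ntf5. HSCR proximal libraries 1 to 4 held 2.15, 0.311, 1.95 and 1.52 CPM. Libraries 1 and 2 were the highest of WT, and the HSCR libraries overlapped the other two. edgeR gave a log2 fold change of -0.76 with a standard error of 0.77 and an adjusted p of 0.857.

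Ntf5 in the distal colon had 3.70, 2.86, 1.01 and 0.627 CPM in WT libraries 1 to 4. HSCR distal libraries 1 to 4 had 2.79, 0.802, 1.496 and 0.685 CPM. Within each genotype library 1 was the highest. By edgeR the HSCR libraries had a log2 ratio to WT of -0.52 (standard error 0.79), with an adjusted p of 1.0. Among replicates 1 and 2 the mean log2 CPM differed by -2.14 in the proximal colon and -1.11 in the distal, and among replicates 3 and 4 by 0.56 and 0.34.

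Ntrk2 (ENSMUSG00000055254, chromosome 13, 58954383 to 59281784, plus strand) encodes TrkB. WT proximal libraries 1 to 4 held 5.24, 15.6, 15.3 and 4.88 CPM of Ntrk2. HSCR proximal libraries 1 to 4 held 8.92, 52.4, 4.88 and 1.31 CPM. HSCR library 2 was the highest and HSCR library 4 the lowest of the 8. The difference fitted by edgeR was 0.73 on the log2 scale, with 0.99 as its standard error and 0.886 as the adjusted p, and it turned to -1.05 without HSCR library 2, while the difference of the mean log2 CPM over all 8 libraries was -0.26 (exact permutation test, two-sided, p = 0.771). In HSCR library 2 the mean log2 CPM of 12 intestinal epithelium markers was 9.73 and that of 8 smooth muscle markers 8.39, the highest and the lowest of the 16 libraries. Their part in the Ntrk2 value of that library was not tested.

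Distal Ntrk2 levels were 4.35, 6.01, 6.22 and 4.77 CPM in WT libraries 1 to 4. In HSCR libraries 1 to 4 they were 5.50, 11.9, 1.67 and 1.21 CPM. The WT libraries were close together, with HSCR library 2 above and libraries 3 and 4 below all of them. WT libraries averaged 5.34 ± 0.919 and HSCR libraries 5.08 ± 4.96 CPM (SD, n = 4 each), and edgeR gave -0.03 on the log2 scale with a standard error of 0.73 and an adjusted p of 1.0.

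Ntrk3 (ENSMUSG00000059146, chromosome 7, 77825707 to 78387760, minus strand) encodes TrkC. WT proximal libraries 1 to 4 held 3.59, 23.3, 48.1 and 23.0 CPM of Ntrk3. HSCR proximal libraries 1 to 4 held 10.6, 0.553, 5.85 and 8.79 CPM. WT libraries 2 to 4 lay above all HSCR libraries, and WT library 1, which had the largest mitochondrial share (49.8%), lay below 3 of the 4 HSCR libraries. WT libraries averaged 24.5 ± 18.2 and HSCR libraries 6.45 ± 4.40 CPM of Ntrk3 (SD, n = 4 each). edgeR gave a log2 fold change of -1.93, with a standard error of 0.89, an unadjusted p of 0.0587 and an adjusted p of 0.748, and the mean log2 CPM differed by -2.06 (exact permutation test, two-sided, p = 0.171). The difference was -1.90 among replicates 1 and 2 and -2.21 among replicates 3 and 4, and the log2 fold change stayed between -2.28 and -1.39 with any 1 library left out. With 4 factors of unwanted variation removed by RUVr, a method the study's methods name, the log2 fold change was -1.98 with an adjusted p of 4.6e-09 from edgeR's likelihood ratio test. RUVr called 3496 genes in this comparison where the quasi-likelihood test called 0 and DESeq2 called 190, with Ntrk3 not among those of DESeq2.

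Ntrk3 in the distal colon had 2.13, 2.47, 16.2 and 26.6 CPM in WT libraries 1 to 4. HSCR distal libraries 1 to 4 had 5.59, 4.30, 3.44 and 8.84 CPM. WT libraries 1 and 2 lay below, and WT libraries 3 and 4 above, every HSCR library. edgeR gave a log2 fold change of -1.05 with a standard error of 0.80 and an adjusted p of 1.0. The value was -0.32 without WT library 4 and -1.07 without the library labelled HSCR distal 1. The mean log2 CPM differed by 1.09 among replicates 1 and 2 and by -1.91 among replicates 3 and 4.

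Ngfr (ENSMUSG00000000120, chromosome 11, 95459644 to 95478561, minus strand) encodes p75. WT proximal libraries 1 to 4 held 10.6, 37.0, 139.9 and 94.5 CPM of Ngfr. HSCR proximal libraries 1 to 4 held 12.4, 6.22, 114.5 and 62.6 CPM. In both genotypes libraries 3 and 4 were the high ones. By edgeR the HSCR libraries had a log2 ratio to WT of -0.55 (standard error 0.96), with an adjusted p of 0.918, and the value was -0.18 without HSCR library 2 and 0.0014 without WT library 3.

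Distal Ngfr levels were 5.93, 14.4, 120.2 and 116.9 CPM in WT libraries 1 to 4. For HSCR libraries 1 to 4 they were 44.2, 6.45, 4.77 and 0.753 CPM. The library labelled HSCR distal 1, the one with Elavl4 and the highest Ednrb level, was far above the other HSCR libraries, of which 2 lay below all WT libraries and 1 (library 2) between WT libraries 1 and 2. The average was 64.4 ± 62.7 CPM over WT and 14.04 ± 20.2 CPM over HSCR libraries (SD, n = 4 each). In edgeR's fit Ngfr had a log2 fold change of -2.13 with a standard error of 1.27, an unadjusted p of 0.129 and an adjusted p of 1.0, and the mean log2 CPM differed by -2.54 (exact permutation test, two-sided, p = 0.171). Without the library labelled HSCR distal 1 the log2 fold change was -4.004, with an adjusted p of 0.813 by edgeR. The mean log2 CPM differed by 0.87 among replicates 1 and 2 and by -5.95 among replicates 3 and 4. RUVr with 4 factors gave -2.67 with an adjusted p of 3.4e-05 (likelihood ratio test), in a comparison where it called 1622 genes and the quasi-likelihood test 0.

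Beside the genotype differences, the markers of enteric neurons had lower means in HSCR than in WT libraries, 15 of 16 genes in the proximal colon and 16 of 16 in the distal. The mean log2 CPM of that list ranged from 4.54 to 7.59 in WT proximal, 1.72 to 6.22 in HSCR proximal, 1.49 to 6.90 in WT distal and -1.03 to 5.51 in HSCR distal libraries, and Chat, which encodes the enzyme that makes acetylcholine, was at 0 in all 4 HSCR distal libraries. It differed by -2.40 in the proximal (exact permutation test, two-sided, p = 0.229) and -3.10 in the distal colon (p = 0.143, exact permutation test). Without the library labelled HSCR distal 1 the distal difference of the neuronal list was -4.41 (exact permutation test, p = 0.0571, the smallest that 4 against 3 libraries allow). Without the library labelled HSCR proximal 1 the proximal difference of the neuronal list shrank to -1.70 (exact permutation test, p = 0.457). The glial list differed by -1.90 in the proximal colon (exact permutation test, p = 0.0286, the smallest that 4 libraries against 4 allow), with 9 of 10 genes lower, and by -1.85 in the distal colon (exact permutation test, p = 0.114). Without HSCR proximal library 1 the proximal glial value was -1.78 (exact permutation test, p = 0.0571), and without HSCR distal library 1 the distal value was -2.38 (exact permutation test, p = 0.114). Markers of intestinal epithelium, which the LMMP should lack, had higher means in HSCR proximal colon for 12 of 12 genes, with a list mean from -2.77 to 7.04 in WT and 3.39 to 9.73 in HSCR. The groups overlapped, and the list differed by 5.18 in the proximal colon (exact permutation test, two-sided, p = 0.114) and by 0.94 in the distal colon, where 11 of 12 genes had higher means (exact permutation test, p = 0.571). Leaving out the library labelled HSCR distal 1 put the distal epithelial difference at 1.35 (exact permutation test, p = 0.514). The part of these lists in the differences of the 6 genes was not tested.

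Without the library labelled HSCR proximal 1, the proximal log2 fold changes were 1.51 for Bdnf, -1.001 for Ntf5, 0.96 for Ntrk2, -2.25 for Ntrk3 and -0.21 for Ngfr. Ntf3 was the gene whose direction turned. Without the library labelled HSCR distal 1, the distal values were 0.68 for Bdnf, 0.022 for Ntf3, -1.10 for Ntf5 and -0.086 for Ntrk2, so that Ntf3 turned and Ngfr moved farthest. None of the 6 genes was called in either fit (edgeR, adjusted p-values of 0.813 to 1.0).

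**Figure D2:**
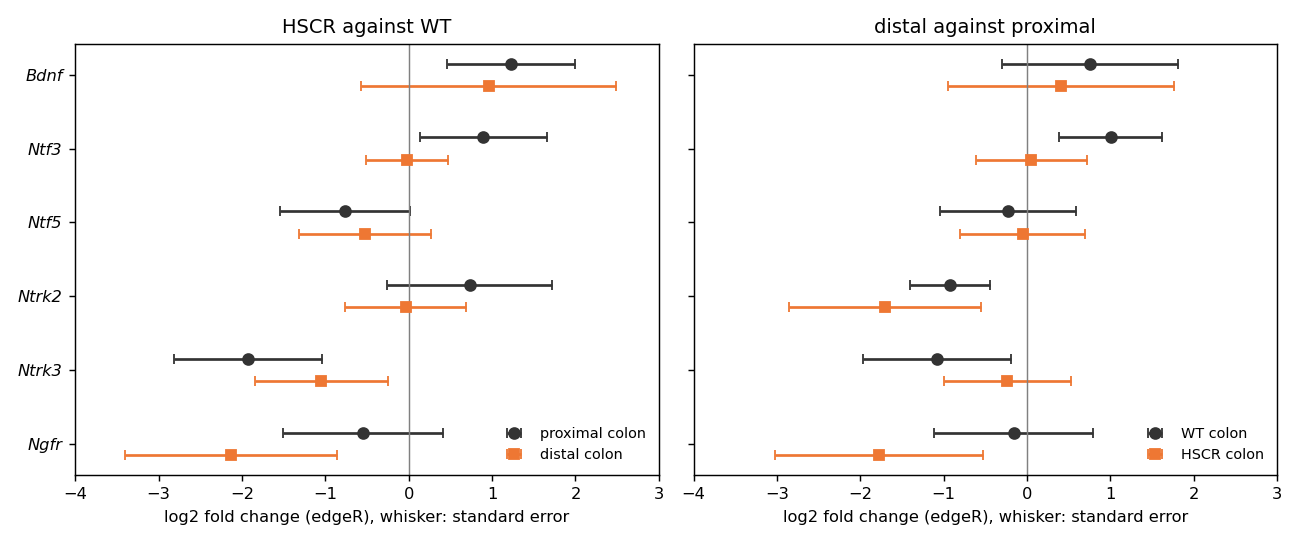
Log2 fold changes from edgeR (horizontal axes) for the 6 genes, with standard errors derived from the test statistic as whiskers. The left shows HSCR against WT in the proximal and distal colon. On the right is distal against proximal colon in WT and HSCR mice. Ntrk3 in proximal colon (-1.93) and Ngfr in distal colon (-2.13) lie farthest below 0 on the left, and none of the values passed an adjusted p under 0.05.

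Over both segments, with the segment as a term in 1 fit over the 16 libraries, Ntrk3 had a log2 fold change of -1.46 between HSCR and WT (standard error 0.62, unadjusted p = 0.0326, adjusted p = 0.429 by edgeR). It was 1 of 6 genes at an unadjusted p under 0.05, beside 10.8% of all 18619 genes tested, and 0 of 6 passed the adjusted threshold, beside 0.0% of all genes. DESeq2 called 0 of 6 over both segments (2.21% of all genes) and RUVr 1 of 6, Ntrk3 (15.1% of all genes). Leaving out any 1 library kept its log2 fold change between -1.65 and -1.16. The values of the other receptors were -1.31 for Ngfr (standard error 0.87, and -1.956 without the library labelled HSCR distal 1) and 0.38 for Ntrk2 (standard error 0.64). Those of the ligands were 1.11 for Bdnf (standard error 0.89), 0.47 for Ntf3 (standard error 0.46) and -0.64 for Ntf5 (standard error 0.54), and the adjusted p-values of these 5 genes lay between 0.609 and 0.870 by edgeR. Proximal and distal libraries may come from the same mice, and the joint fit counts them as independent. Its p-values may therefore be too small, for these genes and for all others tested.

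A test of the interaction of genotype and segment called 0 of 6 genes at an adjusted p under 0.05 (edgeR, 0.0% of 18619 genes) and 0 of 6 at an unadjusted p under 0.05 (1.44% of all genes). DESeq2 and RUVr likewise called 0 of 6 (0.0325% and 1.56% of all genes). The largest difference of differences was that of Ngfr, -1.59 on the log2 scale (standard error 1.66), followed by -0.91 for Ntf3 (standard error 0.92) and 0.89 for Ntrk3 (standard error 1.23). Each of these standard errors exceeded the value it belongs to. The value of Ngfr was -0.17 with the replicate number as a block and turned to 0.19 with the naming series as a term. Without both HSCR libraries numbered 1 the value of Ngfr was -3.79 and that of Ntf3 0.12, with adjusted p-values of 1.0 by edgeR.

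Between the segments of WT mice, the ligand gene Ntf3 was on average higher in distal than proximal colon (6.002 ± 3.06 against 2.96 ± 1.68 CPM, SD, n = 4 each) and both Trk genes were lower (5.34 ± 0.919 against 10.3 ± 6.02 CPM for Ntrk2, 11.8 ± 11.8 against 24.5 ± 18.2 CPM for Ntrk3). The log2 fold changes were 1.00 for Ntf3 (standard error 0.62), -0.92 for Ntrk2 (standard error 0.48) and -1.08 for Ntrk3 (standard error 0.89). None of the 6 genes was called at an adjusted p under 0.05 by edgeR (0 of 6, beside 0.0181% of 16566 genes) or at an unadjusted p under 0.05 (0 of 6, beside 5.23% of all genes). The remaining values were 0.76 for Bdnf, -0.23 for Ntf5 and -0.16 for Ngfr, each smaller than its standard error. RUVr gave adjusted p-values of 0.0464 for Ntf3 and 0.0030 for Ntrk3 (edgeR's likelihood ratio test) in a comparison where it called 3269 genes (19.7% of those tested) and the quasi-likelihood test 3. DESeq2 called 0 of the 5 genes to which it gave an adjusted p there, Bdnf being left without one (0.294% of all genes).

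In HSCR mice 0 of 6 genes were called between distal and proximal colon at an adjusted p under 0.05 (edgeR, 0.0% of 17086 genes) and 0 of 6 at an unadjusted p under 0.05 (1.49% of all genes). With DESeq2 and RUVr the count was also 0 of 6 (0.0297% and 2.01% of all genes). Ngfr (log2 fold change -1.78, standard error 1.24) and Ntrk2 (-1.71, standard error 1.15) had the largest differences, both toward lower values in distal colon. For Ntrk2 it was 0.04 without HSCR proximal library 2. For Ngfr it was -3.97 without both HSCR libraries numbered 1. Ntf3 differed by 0.05 between the segments of HSCR mice, and by 1.13 without both libraries numbered 1. The comparisons between segments share their libraries with the genotype comparisons and are not independent of them.

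Per length of gene, p75 was the most abundant of the 6. The median FPKM over the 16 libraries, a level per kb of the length given in the table, was 7.47 for Ngfr (range 0.206 to 38.2), 2.52 for Ntf3, 0.543 for Ntf5, 0.401 for Bdnf, 0.283 for Ntrk2 and 0.230 for Ntrk3. The order was the same for the median CPM per kb of the canonical GENCODE transcript, from 7.46 for Ngfr through 3.25 for Ntf3 to 0.371 for Ntrk3. The ranges of neighbouring genes in this order overlapped, the lowest library of Ngfr (0.206 FPKM) lying below the highest library of each other gene. The lengths of the table for Ntrk2 (19292 bases) and Ntrk3 (30170 bases) combine many transcripts, 40 and 38 in GENCODE, and exceed those of the canonical transcripts (9050 and 19703 bases).

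The pattern over the 16 libraries differed among the 6 genes. The log2 CPM of Ngfr followed the mean of the 16 neuronal markers closely, with a Pearson r of 0.96 (Spearman rho 0.96, n = 16 libraries), and r was 0.97 after the group means were taken out, 0.97 without both HSCR libraries numbered 1, 0.89 within replicates 1 and 2, and 0.99 within replicates 3 and 4. With the 10 glial markers r was 0.69. These points share their library, its depth and its mix of tissues, so that the values describe the libraries. The genes most like Ngfr among 15376 protein-coding genes were Cadps (r = 0.98), which primes dense-core vesicles for release, Snap91 (r = 0.97), which assembles clathrin coats at synapses, and Cend1 (r = 0.97), a neuronal protein. Cadps had 68.3 CPM in WT proximal library 3 and 0.320 CPM in HSCR distal library 4, the same libraries in which Ngfr was highest and lowest.

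**Figure D3:**
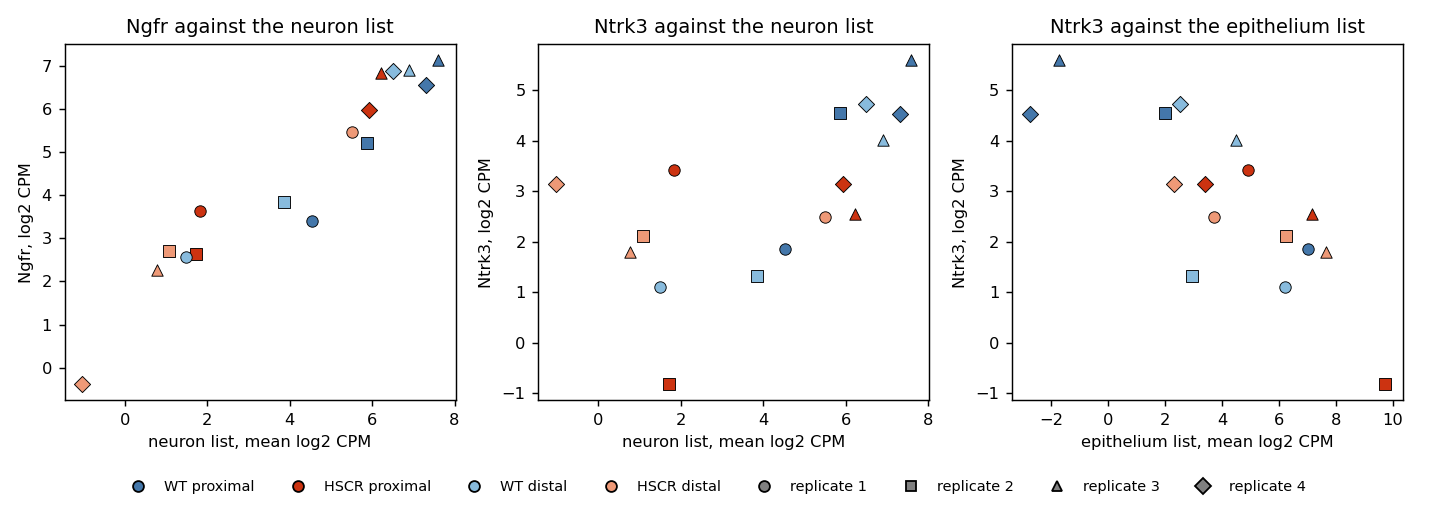
Log2 CPM of Ngfr or Ntrk3 (vertical axes) against the mean log2 CPM of marker lists (horizontal axes) in the 16 libraries, colour giving the group and shape the replicate number. Ngfr lies along the neuron list in all groups (r = 0.96), and Ntrk3 is more scattered against it (r = 0.61) and runs against the epithelium list (r = -0.80).

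Ntrk3 went with more than 1 list. Its r was 0.61 with neurons, 0.76 with smooth muscle, 0.75 with interstitial cells of Cajal, 0.78 with endothelium and -0.80 with epithelium (n = 16 libraries each). Within replicates 1 and 2 these values were 0.50, 0.78, 0.91, 0.93 and -0.77, in the same order. Within replicates 3 and 4 they were 0.64, 0.36, 0.16, 0.24 and -0.83, with those for smooth muscle, interstitial cells and endothelium lower than in replicates 1 and 2. HSCR distal library 4 had the lowest neuron list mean of all (-1.03) and 8.84 CPM of Ntrk3, more than HSCR distal library 1 (5.59 CPM), whose neuron list mean was 5.51. The genes most like Ntrk3 were Clcn6 (r = 0.94), a chloride and proton exchanger of endosomes, Kcnip4 (r = 0.93), a subunit of potassium channels, and Adcyap1r1 (r = 0.93), the PACAP receptor. Ntrk3 and Ngfr had the highest r of any pair of the 6 genes, 0.60 (rho 0.69).

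Ntrk2 did not follow the neuronal markers (r = 0.14) and ran against smooth muscle (r = -0.66), Pdgfra cells and fibroblasts (r = -0.57) and mesothelium (r = -0.52). Rank values were weaker (rho = -0.39 with smooth muscle), and HSCR proximal library 2 was extreme in both measures. Within replicates 3 and 4 alone the r of Ntrk2 was 0.75 with neurons and 0.82 with glia, and within replicates 1 and 2 it was -0.24 and -0.52. The genes most like it were Mycn (r = 0.85), a growth-promoting transcription factor, Thoc6 (r = 0.84), of the mRNA export complex, and Fkbp4 (r = 0.83), a cochaperone, with 18.6, 17.2 and 326.8 CPM in HSCR proximal library 2, the highest value of each.

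Of the ligands, Bdnf ran against the myelin markers of extrinsic nerves (r = -0.71, rho = -0.50) and the red blood cell genes (r = -0.64, rho = -0.68). HSCR distal library 2, where Bdnf was at the floor (log2 CPM -6.11), had the highest myelin list mean of all libraries (1.90). The r without that library was not tested. With neurons Bdnf had an r of 0.14 (rho = -0.12). Its most similar genes were Adgre5 (r = 0.88), an adhesion receptor of leukocytes, Hhipl1 (r = 0.86) and Tmem154 (r = 0.84), each at its lowest in HSCR distal library 2, where Bdnf had no count (Tmem154 was also at 0 in WT distal library 2). Ntf5 had its highest r with macrophage markers (0.67, and 0.05 within replicates 3 and 4), and its most similar genes were Septin7 (r = 0.82), Lix1l (r = 0.78) and 1700025G04Rik (r = 0.77). Bdnf and its receptor gene Ntrk2 had an r of -0.48, Ntf5 and Ntrk2 -0.23, and Ntf3 and its receptor gene Ntrk3 0.16.

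Ntf3 had no r beyond 0.4 in size with any of the 12 marker lists. Its most similar genes were Igfbp5 (r = 0.79), which binds insulin-like growth factors, Hoxd12 (r = 0.77), a posterior Hox gene, and Chd4 (r = 0.76), a chromatin remodeller. Hoxd12 had 0.144 to 2.71 CPM in WT proximal and 10.6 to 19.96 CPM in WT distal libraries, groups that did not overlap. In HSCR proximal libraries 1 to 4 it had 38.1, 0.588, 2.10 and 1.48 CPM, and library 1 was also the one with 14.2 CPM of Ntf3. HSCR distal libraries 1 to 4 had 1.73, 24.2, 18.8 and 0.731 CPM of Hoxd12. The 2 HSCR distal libraries in the WT distal range or above it (2 and 3) held 5.51 and 9.09 CPM of Ntf3, and the other two 5.11 and 3.95 CPM.

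**Figure D4:**
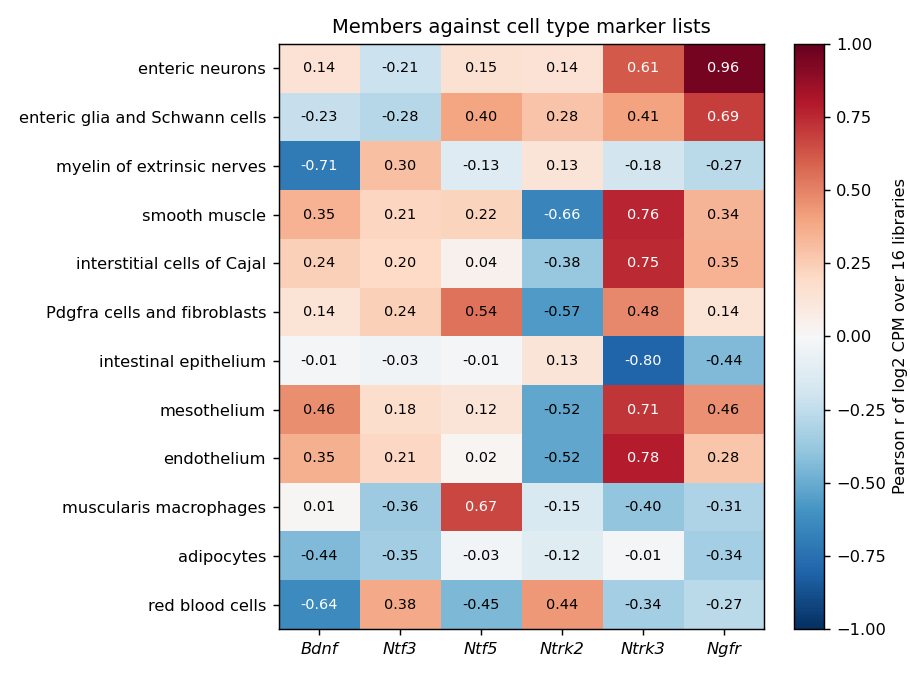
Pearson r over 16 libraries between the log2 CPM of each of the 6 genes (columns) and the mean log2 CPM of 12 cell type marker lists (rows), colour running from -1 (blue) to 1 (red). Ngfr with neurons (0.96) is the highest value, Ntrk3 with epithelium (-0.80) the lowest, and Ntf3 has only pale cells.

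The other genes of the pathway were taken as a list of 47, of which edgeR tested 44 in each segment. None was called between HSCR and WT at an adjusted p under 0.05 by edgeR, in either segment. In the proximal colon 18 had higher and 26 lower values in HSCR mice, and their median on the log2 scale was -0.12, beside 0.04 over all genes tested, and 1 higher and 4 lower passed an unadjusted p under 0.05 (6.62% of all genes did). In the distal colon 20 were higher and 24 lower, with a median of -0.04 beside 0.04, and 0 higher and 2 lower passed that limit (2.64% of all genes did). The 17 adaptors and effectors that carry the signal of Trk receptors into the cell were lower in HSCR for 13 genes in each segment, with a median of -0.17 for the proximal colon and -0.24 for the distal colon. The 14 partners and sorting receptors of p75 had 8 higher and 6 lower in each segment, and the 7 tested genes of pro-neurotrophin cleavage 4 higher and 3 lower. Without the library labelled HSCR distal 1, 17 pathway genes were higher and 27 lower in HSCR distal colon, with a median of -0.17 and 0 called by edgeR.

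Of the pathway genes the smallest unadjusted p-values between HSCR and WT belonged to the same 3 genes in the proximal, the distal and the joint fit. Shc2, an adaptor of Trk receptors, had 15.1, 29.9, 41.2 and 28.1 CPM in WT proximal and 8.92, 6.50, 17.9 and 12.7 CPM in HSCR proximal libraries 1 to 4. Its distal values were 33.4, 38.0, 31.8 and 21.9 CPM in WT and 16.7, 16.3, 1.98 and 3.36 CPM in HSCR. The proximal groups overlapped by WT library 1 and the distal groups did not overlap. Shc2 was named for its small p in these comparisons, and 1.83% of all genes tested had distal groups that did not overlap. The log2 fold change of Shc2 was -1.33 in the proximal (standard error 0.40) and -1.67 in the distal colon (standard error 0.69), with adjusted p-values of 0.691 and 1.0 by edgeR, and -1.49 over both segments (standard error 0.40, adjusted p = 0.209). The distal value of Shc2 was -2.09 without HSCR distal library 1.

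Slitrk5, a membrane protein that binds TrkB, had 3.16, 1.25, 11.3 and 14.3 CPM in WT proximal and 0.874, 0.622, 2.44 and 0.953 CPM in HSCR proximal libraries 1 to 4. Its distal values were 1.09, 1.97, 11.4 and 11.3 CPM in WT and 0.922, 2.22, 0.565 and 1.05 CPM in HSCR. WT libraries 3 and 4 were the high ones in both segments, and the groups overlapped. Over both segments edgeR gave a log2 fold change of -2.48 with a standard error of 0.60 and an adjusted p of 0.172.

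Aph1a, a subunit of the gamma-secretase that cuts p75 in the membrane, went the other way. It had 41.9, 45.1, 57.0 and 46.4 CPM in WT proximal and 74.7, 92.8, 65.9 and 69.0 CPM in HSCR proximal libraries 1 to 4. Distal libraries 1 to 4 had 49.9, 35.7, 55.2 and 56.3 CPM in WT and 65.6, 55.8, 90.4 and 72.4 CPM in HSCR. Every HSCR proximal library lay above every WT proximal library, and in the distal colon 1 HSCR library lay within the WT range. Aph1a was likewise named for its small p, and 4.78% of all genes tested had proximal groups that did not overlap. Over both segments edgeR gave 0.62 on the log2 scale, with a standard error of 0.15, an unadjusted p of 0.00056 and an adjusted p of 0.167. The p-values over both segments, here and for Shc2 and Slitrk5, may be too small if the segments share mice.

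Between the segments, 0 pathway genes were called by edgeR in WT (of 43 tested, 23 higher and 20 lower in distal colon) or in HSCR mice (of 45 tested, 24 higher and 21 lower), and 0 of 45 in the test of the difference between segments. In WT mice 13 of 17 Trk adaptors and effectors were higher in distal colon, led by Rapgef1 (log2 fold change 0.54, standard error 0.23), Shc1 (0.53, standard error 0.25) and Sh2b1 (0.42, standard error 0.22), the first of which passed an unadjusted p under 0.05. In HSCR mice the smallest p belonged to Sorcs3, a sorting receptor, at -2.14 (standard error 0.94), followed by Frs2 at 0.71 (standard error 0.38) and Rapgef1 at 0.63 (standard error 0.38). Levels of Sorcs3 were low, which limits its value. HSCR proximal libraries 1 to 4 held 0.0999, 1.66, 0.587 and 1.06 CPM of Sorcs3, and HSCR distal libraries 0.279, 0.255, 0.169 and 0.0685 CPM. In the test of the difference between segments the smallest p-values belonged to Shc1 (-0.60, standard error 0.36), Shc3 (1.80, standard error 1.30) and Sorcs2 (-0.98, standard error 0.83).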

How the data were processed

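The authors purified poly(A) RNA from LMMP, aligned the reads to mm39 with HISAT2 2.2.1 and counted them per gene with featureCounts 2.0.6, and the deposited counts are whole numbers without normalization. The deposited FPKM values are these counts per kb of gene length and scaled per library. This was checked on values with enough counts (100% of these within 1% of 1 constant per library). Values of low counts were left out of the check. The authors also deposited the results of their own tests (fold changes with p-values), which were not used here. The columns were tied to libraries by the library names in the labels, and 0 pairs of libraries were identical. Totals were 21384372 to 45831881 counts per library, and intervals and floors cover counting error only.

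CPM were computed with TMM factors over all genes of the 16 libraries, and log2 CPM with a prior count of 0.5. Genes were tested with edgeR 4.0.16 (filterByExpr, TMM, quasi-likelihood test) in R 4.3.3, separately in each segment and genotype, and over all 16 libraries for the difference between segments and the joint difference. The quasi-likelihood test gives no standard error. Those printed are the size of the log2 fold change divided by the square root of the F statistic. Benjamini-Hochberg adjustment ran over all genes tested, with a call at an adjusted p under 0.05. Values of single genes and marker lists were tested by exact permutation (two-sided), which cannot go below p = 0.0286 with 4 against 4 libraries. Over the 12 such tests of the 6 genes the adjusted p-values were 0.876 to 0.971. For the genotype comparisons, edgeR's quasi-likelihood test was checked on simulated counts. Recovery was required there only at a dispersion below that of these data. The check therefore does not say how often a real difference would be called in these libraries. Alternatives were DESeq2 1.42.0, RUVr with 4 factors on edgeR's deviance residuals followed by the likelihood ratio test, other scalings (size factors of DESeq2, library totals, mitochondrial genes left out), no filter on low counts, a prior count of 2, the replicate number or the naming series as a term, all 16 libraries in 1 fit, and libraries left out. The series are replicates 1 and 2 and replicates 3 and 4 of each group, whose library names follow different schemes, while the labels give 1 batch for all. Names of replicates 3 and 4 are themselves mixed. Their prefix is CM in WT proximal, LC or CM in HSCR proximal, and LC in the distal groups. In the proximal colon the series therefore does not hold the prefix constant.

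The genes named were the 6 members, Ednrb, for each member the 3 protein-coding genes with the highest Pearson r, and in each comparison the 3 pathway genes of smallest p where none was called. Elavl4, Myh11 and Ruvbl2 were named after their values were seen. The members and lists were chosen with earlier results of these data known. Sequences came from GRCm39 and GENCODE M39 transcripts. Figures were drawn with matplotlib 3.10.9 in Python 3.11.15.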

Additional observations from a re-analysis of the deposited data

How the results depend on the processing

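The genotype and segment differences of the 6 genes rest on 4 libraries per group that differ widely from each other. Low counts limit the values of Ntf5, which had 9 to 115 counts per library. Bdnf had 0 counts in HSCR distal library 2, where 3 counts correspond to 0.131 CPM. The other HSCR distal libraries held 3.79 to 16.8 CPM of Bdnf, and the cause of that 0 was not tested. None of the 6 genes was called by edgeR's quasi-likelihood test under any scaling, filter, covariate or set of libraries, nor by DESeq2, which gave no adjusted p for Bdnf between WT segments. RUVr called 1 of them in the proximal colon (Ntrk3), 1 in the distal colon (Ngfr), 2 between WT segments (Ntf3 and Ntrk3) and 1 over both segments (Ntrk3), beside 21.0%, 9.51%, 19.7% and 15.1% of all genes. Marker lists, Ednrb and pathway genes without the libraries labelled HSCR distal 1 or HSCR proximal 1 were added after seeing the data. The cause of the differences between settings was not tested.

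Genes called over the whole table in the proximal, distal, WT segment, HSCR segment, difference between segments and joint comparisons numbered 190, 22, 48, 5, 6 and 398 with DESeq2 and 3496, 1622, 3269, 344, 290 and 2805 with RUVr, beside 0, 0, 3, 0, 0 and 0. With the naming series as a term they numbered 4 in the proximal and 2 in the joint comparison, and with 16 libraries in 1 fit 0 between WT segments. Leaving out 1 library gave 0 to 2 calls between WT segments and 0 to 11 in the joint comparison, where 11 came without WT distal library 1 and 1 without HSCR distal library 2. Correlations of deviations between same-numbered libraries, across genotypes and across segments, ran from -0.22 to 0.43. Within a genotype, some proximal and distal libraries of the same number matched each other best. These were WT 1 and 2 (r = 0.42 and 0.096) and HSCR 2 and 4 (r = 0.29 and 0.36). WT 3 and 4 and HSCR 1 and 3 did not. Across genotypes only the distal libraries numbered 4 matched in this way (r = 0.43). Replicate numbers thus did not pair all libraries, and whether some share a mouse was not tested. With the replicate block 1 gene was called between WT segments and 1 in the joint comparison, and the log2 fold changes that turned were those of Ntrk2 (-0.29 proximal and -0.42 joint), Ntf3 (0.092 distal), Bdnf (-0.77 between WT segments, -0.44 between HSCR segments and 0.65 for the difference between segments), Ntf5 (0.011 between HSCR segments) and Ntrk3 (0.14 between HSCR segments). The block changed no other call.

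Other log2 fold changes that turned, all uncalled, were the following. With RUVr they were Ntrk2 (-0.43 proximal and -0.38 joint), Ntf3 (0.060 distal), Bdnf (-0.68 between WT and -0.92 between HSCR segments), Ntf5 (0.065) and Ntrk3 (0.23) between HSCR segments. With library totals they were Ntrk2 (0.018 distal), Ntf5 (0.056 between WT segments, 0.013 between HSCR segments, -0.040 for the difference between segments) and Ngfr (0.082 between WT segments). With the naming series as a term they were Ntrk2 (-0.076 proximal and -0.30 joint), Ntf3 (0.046 distal) and Ngfr (0.19 for the difference between segments), and with 16 libraries in 1 fit Ntf3 (0.010 distal). Without both HSCR libraries numbered 1 they were Ntf3 (-0.13 proximal, 0.022 distal, 0.12 for the difference between segments), Bdnf (-0.16) and Ntrk3 (0.082) between HSCR segments, and Ntf5 (-0.15 for the difference between segments).

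The differences of mean log2 CPM turned within 1 naming series for Bdnf (-0.87 proximal and -2.18 distal in replicates 1 and 2), Ntf3 (-0.26 and -0.37 in replicates 3 and 4), Ntf5 (0.56 and 0.34 in replicates 3 and 4), Ntrk2 (1.26 and 0.66 in replicates 1 and 2), Ntrk3 (1.09 distal in replicates 1 and 2) and Ngfr (0.87 distal in replicates 1 and 2), and for proximal Ntrk2 with library totals (0.0099). These within-series values rest on 2 libraries against 2.

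With each library left out in turn, the ranges that crossed 0 were, in the proximal colon, -0.13 to 1.24 (Ntf3), -1.05 to 1.10 (Ntrk2) and -1.33 to 0.0014 (Ngfr). In the distal colon they were -0.30 to 0.29 (Ntf3) and -0.92 to 0.29 (Ntrk2). Between WT segments they were -1.37 to 1.13 (Bdnf), -0.71 to 0.27 (Ntf5) and -0.68 to 0.39 (Ngfr). Between HSCR segments they were -0.17 to 1.00 (Bdnf), -0.20 to 1.09 (Ntf3), -0.63 to 0.18 (Ntf5), -2.59 to 0.038 (Ntrk2) and -0.62 to 0.10 (Ntrk3). For the difference between segments they were -0.92 to 1.86 (Bdnf), -1.28 to 0.11 (Ntf3), -0.38 to 0.71 (Ntf5) and -1.69 to 0.99 (Ntrk2), and for the joint difference -0.042 to 0.66 (Ntf3) and -0.49 to 0.57 (Ntrk2). For mean log2 CPM they were -1.20 to 0.57 (proximal Ntrk2) and, in the distal colon, -0.82 to 2.57 (Bdnf), -0.32 to 0.38 (Ntf3), -0.83 to 0.012 (Ntf5) and -0.97 to 0.24 (Ntrk3).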
